A study of Mus musculus with 6 samples.

Results

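The basement membrane genes Col4a1, Col4a2, Lama2, Lama4, Lamb1, Lamb2, Lamc1, Nid1, Nid2 and Hspg2 were examined in the infarcted mouse heart. These 10 genes were taken by name from the collagen IV, laminin, nidogen and perlecan families, out of 36047 genes to which the deposited transcripts were joined. Other chains measured in this tissue, such as Lama5 and Col4a5, were read in a separate list. All 10 were among the 20094 genes that passed the filter on low counts. RNA sequencing had been performed on infarct tissue of 6 mice, 3 treated with the Porcupine inhibitor LGK-974 and 3 with its DMSO vehicle. Porcupine is the enzyme that attaches a lipid to Wnt proteins, without which they are not secreted. All mice were of the C57BL6 strain and 12 weeks old in the sample labels, and female according to the methods of the study. In both groups the left anterior descending artery had been occluded and reopened (ischemia/reperfusion, I/R), and the infarct area was taken 48 h later. LGK-974 was given by oral gavage from the end of surgery, and control mice received DMSO in the same citrate buffer. Both groups were injured, so the comparison concerns treatment and not injury.

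A basement membrane is a thin sheet of extracellular matrix that lies under endothelium and wraps each cardiomyocyte, smooth muscle cell and pericyte. It is built from a laminin network, anchored to cells through integrins and dystroglycan, and a collagen IV network, which nidogens and the heparan sulfate proteoglycan perlecan connect with each other. In the heart the sheet around cardiomyocytes carries the laminin alpha 2 chain, whose loss causes muscular dystrophy, while the laminin alpha 4 chain is typical of vessels. Each laminin molecule holds an alpha, a beta and a gamma chain, and each common collagen IV molecule holds chains of Col4a1 and Col4a2.

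Col4a1 and Col4a2 lie head to head on chromosome 8 of GRCm38, Col4a1 on the minus strand from 11198423 to 11312826 and Col4a2 on the plus strand from 11312805 to 11449287, so that their first exons share 22 bases. RefSeq promoter windows, from 250 bases before to 50 bases after a gene start (GRCm38.p6), were held for 7 of the 10 genes. The windows of the collagen IV pair, chr8:11312777-11313076 on the minus strand for Col4a1 and chr8:11312555-11312854 on the plus strand for Col4a2, are shown because both genes start inside the same short stretch. Capitals mark the 78 bases, chr8:11312777-11312854, that the windows have in common, which read as reverse complements of each other.
Col4a1: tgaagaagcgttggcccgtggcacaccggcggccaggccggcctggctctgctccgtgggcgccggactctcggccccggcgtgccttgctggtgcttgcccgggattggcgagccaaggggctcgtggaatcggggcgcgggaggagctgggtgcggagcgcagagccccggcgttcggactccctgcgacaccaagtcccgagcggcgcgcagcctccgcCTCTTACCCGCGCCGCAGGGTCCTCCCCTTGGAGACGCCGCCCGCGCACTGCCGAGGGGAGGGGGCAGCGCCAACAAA
Col4a2: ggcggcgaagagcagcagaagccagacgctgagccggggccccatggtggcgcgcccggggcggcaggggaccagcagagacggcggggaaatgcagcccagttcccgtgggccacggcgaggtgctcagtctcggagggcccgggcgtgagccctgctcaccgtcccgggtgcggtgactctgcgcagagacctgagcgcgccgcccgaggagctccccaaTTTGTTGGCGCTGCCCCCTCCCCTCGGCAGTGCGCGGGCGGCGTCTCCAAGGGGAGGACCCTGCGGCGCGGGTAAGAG
The GC content was 74.0% in the Col4a1 window and 73.7% in the Col4a2 window, higher than in 95.2% and 94.9% of all 32851 windows. The letters GGGCGG, searched on both strands, occurred 1 time in the Col4a1 window and 3 times in the Col4a2 window, and were present in 35.7% of all windows. The match in the Col4a1 window lies in the shared 78 bases and is also 1 of the 3 in the Col4a2 window. CCAAT occurred 1 time in each, against 37.4% of all windows with a match, and TATAAA in neither, against 13.6%. Among the other 5 windows, those of Hspg2, Lamb1 and Nid1 had a GC content of 70.3%, 63.7% and 64.7%, whereas those of Lama2 and Lamb2 had 50.3% and 44.0%. The Lama2 window, chr10:27616893-27617192 on the minus strand, follows a RefSeq start. It lies inside the gene as annotated for the counts, which starts at 27619758 on that strand. GGGCGG was found in all of the 7 windows other than that of Lamb2. These are matches of letters, and no binding was measured.

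The libraries held 41579787 to 80398211 estimated counts, and each of the 10 genes had at least 518 counts in every library. Counts were divided by the library total and given as CPM, after scaling with the TMM method, which corrects library sizes for a few very abundant genes. Mitochondrially encoded genes accounted for 28.1 to 53.6% of counts in treated mice and 39.2 to 42.6% in control mice. DMSO replicate 1 stood apart. Over 1780 olfactory, vomeronasal and bitter taste receptor genes, which the heart is not known to use, its median level was 30.9 counts per kb. The level was 10.2 and 1.77 in DMSO replicates 2 and 3, and 9.56, 2.82 and 0.805 in LGK-974 replicates 1, 2 and 3. Except for Nid2, the 10 genes lay at least 13.9 times above this level in every library. The tissue label was borne out by cardiomyocyte markers such as Myh6 and Tnnt2, of which all 12 were tested and which summed to 40173 to 63805 CPM.

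Under LGK-974, 8 of the 10 genes had a higher mean than under DMSO, with log2 fold changes of 0.26 to 0.53, while Lama2 and Lamb2 had a lower one. Collagen IV had the largest of these log2 fold changes, 0.53 for Col4a1 and 0.45 for Col4a2. Differences were tested with the quasi-likelihood method of edgeR, and p-values were adjusted over all tested genes after Benjamini and Hochberg. None of the 10 genes passed 0.05. Their adjusted p-values ran from 0.374 to 0.716, and none of the 10 reached an unadjusted p-value under 0.05, a level that 6.26% of all tested genes reached as higher and 7.18% as lower. With limma-voom none of the 10 reached it either, against 9.7% of all genes in either direction. Over the whole table edgeR called 0 genes (0%) after adjustment. Infarct tissue is a mixture, and fewer cells of a type and less RNA per cell cannot be told apart in it.

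The median log2 fold change of the 10 genes was 0.31, beside −0.13 over all tested genes, of which 40.5% lay above 0 and 59.5% below. In Lama4, Lamc1 and Nid1 every LGK-974 library lay above every DMSO library, and 10.7% of all tested genes were so separated. The reverse separation was found for none of the 10, and for 7.27% of all genes. DMSO replicate 1 held the lowest value of 9 of the 10 genes, and without this library the median of the 10 was 0.15 and that of all genes −0.02. Without DMSO replicate 3 these medians were 0.55 and 0.02, and all 10 genes were higher. The 8 genes with a higher mean ranged from 0.10 to 0.34 without DMSO replicate 1 and from 0.45 to 0.66 without DMSO replicate 3. The SD was larger among DMSO mice than among LGK-974 mice for all 10 genes, but for 2 when DMSO replicate 1 was left out.

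**Figure D1:**
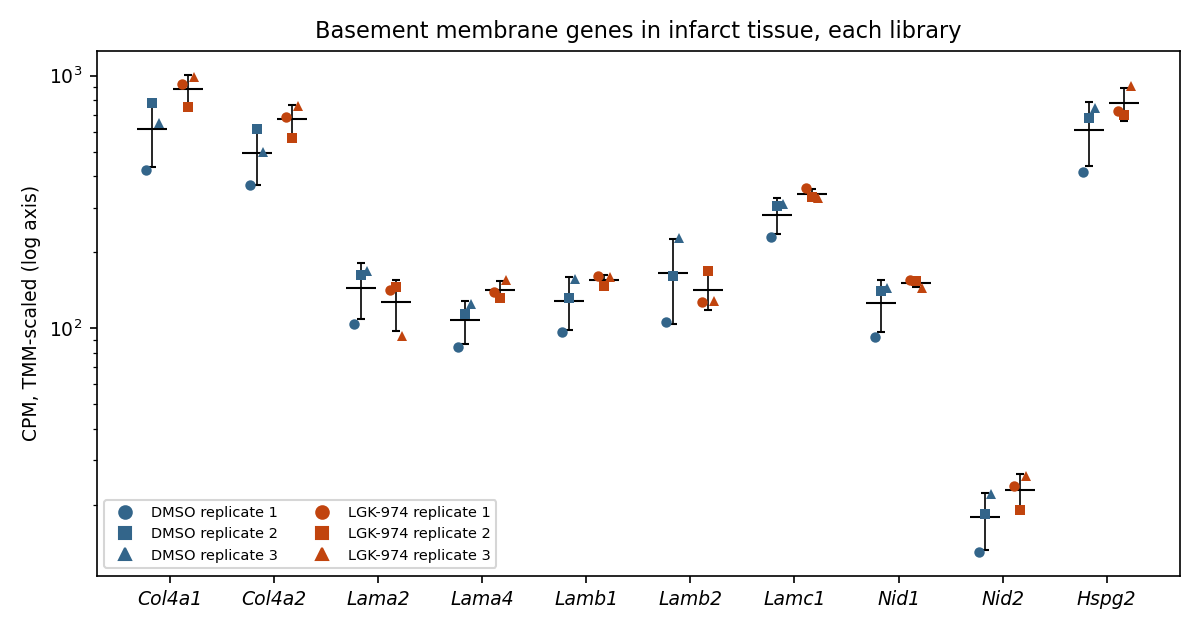
TMM-scaled CPM of the 10 genes in each of the 6 libraries, on a log axis, with blue symbols for DMSO and orange symbols for LGK-974, the shape giving the replicate number. Horizontal bars are group means and whiskers the SD (n = 3). DMSO replicate 1 (blue circles) is the lowest library for every gene other than Lama2.

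Col4a1, the alpha 1 chain of collagen IV, was measured at 925, 754 and 987 CPM in LGK-974 replicates 1, 2 and 3, and at 422, 778 and 648 in DMSO replicates 1, 2 and 3. The group means were 889 ± 121 and 616 ± 180 (SD, n = 3 each). DMSO replicate 2 lay above LGK-974 replicate 2, so the groups overlapped. The 95% interval of the fold ran from 0.918 to 2.27 (edgeR, adjusted p = 0.395).

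Col4a2, the alpha 2 chain, followed the same order of libraries among LGK-974 mice and among DMSO mice. Its values were 689, 568 and 758 CPM under LGK-974 and 368, 616 and 497 under DMSO, with means of 672 ± 96.4 and 493 ± 124 (SD, n = 3 each). Here again only DMSO replicate 2 reached into the range of the treated mice, and the interval of the fold was 0.900 to 2.06 (edgeR, adjusted p = 0.422). Exons of Col4a2 also share 43 bases with the antisense gene Gm15419, and reads within that stretch cannot be assigned where strand was not used, which the sources used here do not give. Without DMSO replicate 1, the log2 fold changes of Col4a1 and Col4a2 were 0.34 and 0.29.

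Lamc1, the gamma 1 chain found in most laminins of the heart, lies on the minus strand of chromosome 1 from 153218922 to 153332786. It was measured at 359, 330 and 329 CPM under LGK-974 and at 229, 304 and 311 under DMSO, and the groups did not overlap. The log2 fold change was 0.27 (standard error 0.198, adjusted p = 0.504 by edgeR's test). The means were 339 ± 16.8 and 282 ± 45.5 (SD, n = 3 each), and the log2 fold change was 0.16 without DMSO replicate 1.

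Lama4, the alpha chain of vascular laminins, had the smallest p-value of the 10 genes and was the 3973rd of all genes tested in that order. It lies on chromosome 10 from 38965515 to 39110188, on the plus strand. LGK-974 replicates had 139.5, 132 and 155 CPM, and DMSO replicates 84.2, 114 and 125. The lowest treated mouse thus lay just above the highest control mouse. The means were 142 ± 11.6 and 107 ± 20.8 (SD, n = 3 each), and the log2 fold change was 0.40, with a 95% interval from −0.05 to 0.86 (edgeR, adjusted p = 0.374). It was 0.27 without DMSO replicate 1.

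Lama2, the alpha chain of the laminins around cardiomyocytes, lies on the same chromosome from 26980036 to 27619758, on the minus strand. Its values were 141, 145 and 93.5 CPM under LGK-974 and 104, 162 and 169 under DMSO. Unlike the other genes its lowest library was LGK-974 replicate 3, and the groups overlapped widely. The means of 127 ± 28.8 and 145 ± 35.7 (SD, n = 3 each) gave a log2 fold change of −0.19 (edgeR, adjusted p = 0.716), the sign of which turned to 0.05 without LGK-974 replicate 3 and to 0.03 without DMSO replicate 3. Lama2 shares 631 exonic bases with the antisense gene Gm48084.

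Lamb1, the widespread beta chain (chromosome 12 from 31265234 to 31329644, plus strand), was measured at 161, 147 and 159 CPM under LGK-974 and at 96.5, 132 and 157 under DMSO. Only DMSO replicate 3 reached the range of the treated mice. The means were 156 ± 7.51 and 129 ± 30.4 (SD, n = 3 each), and the log2 fold change was 0.28 (edgeR, adjusted p = 0.517). It was 0.12 without DMSO replicate 1.

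Lamb2, the beta chain best known from muscle, its synapses and the kidney filter (chromosome 9 from 108479736 to 108490530, plus strand), had 127, 168 and 128 CPM under LGK-974 and 106, 161 and 227 under DMSO. The DMSO mice spanned 2.15-fold, more than for any other of the 10 genes, and enclosed all treated mice. The means were 141 ± 23.5 and 165 ± 61.0 (SD, n = 3 each), and the log2 fold change was −0.22 with a 95% interval from −0.89 to 0.45 (edgeR, adjusted p = 0.703). DMSO replicate 3 decided the sign, since the log2 fold change was 0.18 without it.

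The nidogens, which link laminin to collagen IV, both had higher means with LGK-974. Nid1 (chromosome 13 from 13437551 to 13512269, plus strand) was measured at 155, 154 and 145 CPM under LGK-974 and at 92.4, 141 and 144 under DMSO. The groups were separated by less than 1 CPM, and outside DMSO replicate 1 the libraries lay close together. The means were 151 ± 5.70 and 126 ± 28.9 (SD, n = 3 each, log2 fold change 0.26, adjusted p = 0.529 by edgeR's test), and the log2 fold change was 0.10 without DMSO replicate 1.

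Nid2, the less abundant nidogen (chromosome 14 from 19751265 to 19811787, plus strand), had 23.7, 19.0 and 26.0 CPM under LGK-974 and 13.02, 18.4 and 22.0 under DMSO. DMSO replicate 3 lay above LGK-974 replicate 2. The means were 22.9 ± 3.58 and 17.8 ± 4.52 (SD, n = 3 each), and the log2 fold change was 0.36 (edgeR, adjusted p = 0.443), and 0.20 without DMSO replicate 1 and 0.65 without DMSO replicate 3. On the counts of its most abundant transcript alone it was 1.09. In DMSO replicate 1 Nid2 lay 3.44 times above the median of the receptor genes not used by the heart, the smallest margin among the 10 genes. Nid2 shares 437 exonic bases with Rtraf on the other strand, and Nid1 shares 143 with the antisense gene Gm48682.

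Hspg2 encodes perlecan, the large heparan sulfate proteoglycan of vascular and muscle basement membranes (chromosome 4 from 137468769 to 137570630, plus strand). It was measured at 723, 696 and 914 CPM under LGK-974 and at 415, 677 and 744 under DMSO. LGK-974 replicate 3 was the only treated library above all control libraries. The means were 778 ± 119 and 612 ± 174 (SD, n = 3 each), and the log2 fold change was 0.35 with an interval from −0.30 to 0.99 (edgeR, adjusted p = 0.537). It was 0.14 without DMSO replicate 1.

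**Figure D2:**
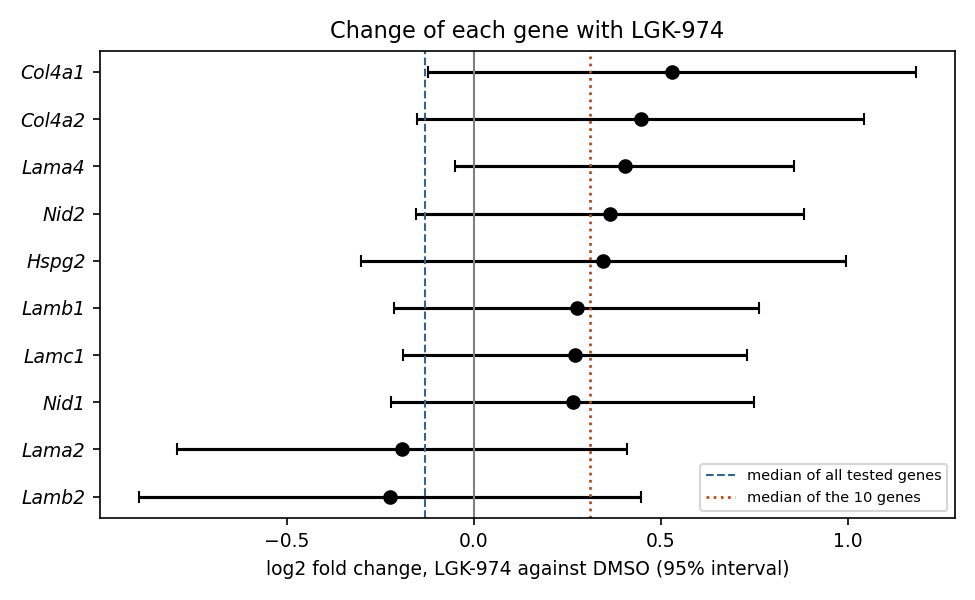
Log2 fold change between LGK-974 and DMSO mice, above 0 where LGK-974 was higher, for each of the 10 genes with its 95% interval from edgeR's test. The dashed line is the median of all tested genes (−0.13) and the dotted line that of the 10 genes (0.31), and all 10 intervals include 0.

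With DESeq2, the program used in the study, Col4a1, Col4a2 and Lama4 had an unadjusted p-value under 0.05 as higher, which 3.64% of all genes had. Their DESeq2 adjusted p-values were 0.229, 0.276 and 0.277, and 1.23% of the genes given an adjusted p-value by DESeq2 passed 0.05, none of them among the 10. Without DMSO replicate 3, edgeR's test gave Lama4 and Nid2 an unadjusted p-value under 0.05 as higher, which 9.14% of all genes had.

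Levels of different genes were compared per length, on the TPM that the authors deposited, summed per gene. Col4a1 was the highest of the 10 genes in every library and Col4a2 the second highest, with means of 182 ± 98.3 and 121 ± 61.4 TPM (SD, n = 6 libraries). Nid2 was the lowest in every library at 6.56 ± 3.21 TPM. Between them lay Lamc1 at 67.6, Hspg2 at 52.7, Lamb2 at 43.7, Nid1 at 43.3, Lama2 at 30.8, Lamb1 at 30.6 and Lama4 at 28.7 TPM on average. Lamc1 exceeded Hspg2 in all 6 libraries, by 1.03- to 2.02-fold, and Nid1 exceeded Lama2 in all 6. The other neighbours were not separated, since Hspg2 exceeded Lamb2 in 3 of 6 libraries, Lamb2 exceeded Nid1 in 3, Lama2 exceeded Lamb1 in 3 and Lamb1 exceeded Lama4 in 4. TPM values of short transcripts add to these sums. On counts per kb of the transcript with the most counts, an order chosen after the values were seen, Hspg2 came before Lamc1 and Lama2 came ninth.

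**Figure D3:**
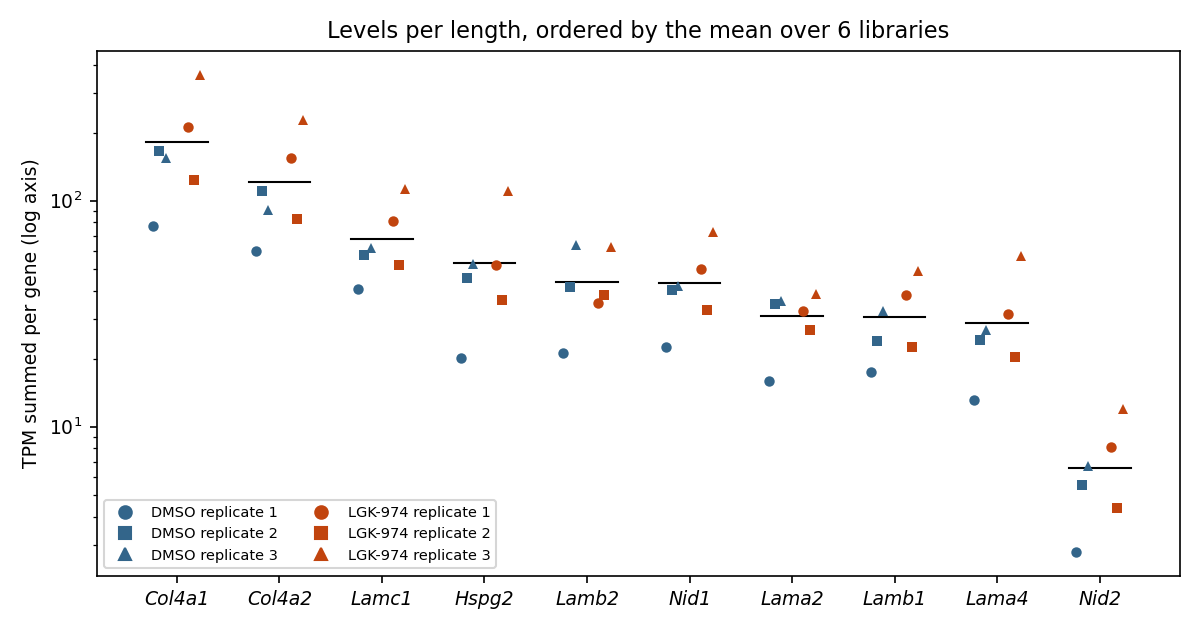
TPM summed per gene for the 10 genes in each library, on a log axis, in the order of the mean over 6 libraries (black bars). Blue symbols are DMSO and orange symbols LGK-974. LGK-974 replicate 3, which had the smallest share of mitochondrial counts, is the highest library for all genes other than Lamb2.

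Within a library, ratios of TPM do not depend on how the library is scaled. Over all 45 pairs of the 10 genes, the log2 ratio varied least between libraries for Col4a1 and Lama4 (SD 0.0999, n = 6), with 5.80 to 6.89 times more Col4a1, followed by Lamc1 and Nid1 (SD 0.121). The pair of Col4a1 and Col4a2 came in the sixth place, with a Col4a2 to Col4a1 ratio of 0.728, 0.674 and 0.632 under LGK-974 and of 0.772, 0.665 and 0.590 under DMSO. The widest spread was that of Col4a2 and Lamb2, with an SD of 0.568 and ratios from 1.44 to 4.38.

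The following 7 ratios were compared between the groups with exact two-sided permutation tests, which with 3 mice against 3 cannot give a p-value under 0.1. The ratio of Lama4 to Lama2 was 0.975, 0.754 and 1.47 under LGK-974 and 0.819, 0.688 and 0.737 under DMSO, with LGK-974 replicate 2 inside the range of the controls (exact permutation p = 0.2, adjusted p = 0.7). On estimated counts in place of TPM it did not overlap between the groups. The Lamb2 to Lamb1 ratio was 0.920, 1.70 and 1.28 under LGK-974 and 1.22, 1.74 and 1.96 under DMSO, overlapping as well (exact permutation p = 0.4, adjusted p = 0.7). The log2 differences of these ratios were 0.46 and −0.35. The first was 0.20 without LGK-974 replicate 3 and the second −0.12 without LGK-974 replicate 1. The ratios of Col4a2 to Col4a1, of Nid2 to Nid1, of both alpha chains to Lamc1 and of both beta chains to Lamc1 had log2 differences of 0.01, 0.12, −0.11 and −0.23, with exact permutation p-values of 0.9, 0.5, 0.6 and 0.5. On the most abundant transcripts the difference in Nid2 to Nid1 was 1.32. The Nid1 transcript used there has 646 bases, is annotated as a retained intron and held only 6.27 to 9.71% of Nid1 counts.

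The sum of Col4a1 and Col4a2 was also set against that of the fibrillar collagens Col1a1, Col1a2 and Col3a1, which form the fibres of scar tissue. The ratio was 0.464, 0.449 and 0.290 under LGK-974 and 0.627, 0.609 and 0.595 under DMSO. All treated mice lay below all controls, and the controls differed little. The log2 difference was −0.64 with an exact permutation p of 0.1, the smallest the design allows, and an adjusted p of 0.7 over the 7 ratios. Without a mouse in turn it ran from −0.76 to −0.42, the latter without LGK-974 replicate 3. The log2 fold changes of Col1a1, Col1a2 and Col3a1 were 1.12, 1.07 and 1.14 (edgeR's adjusted p-value 0.368 for each, and 0.0356, 0.0253 and 0.00752 with DESeq2), larger in size than those of collagen IV.

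**Figure D4:**
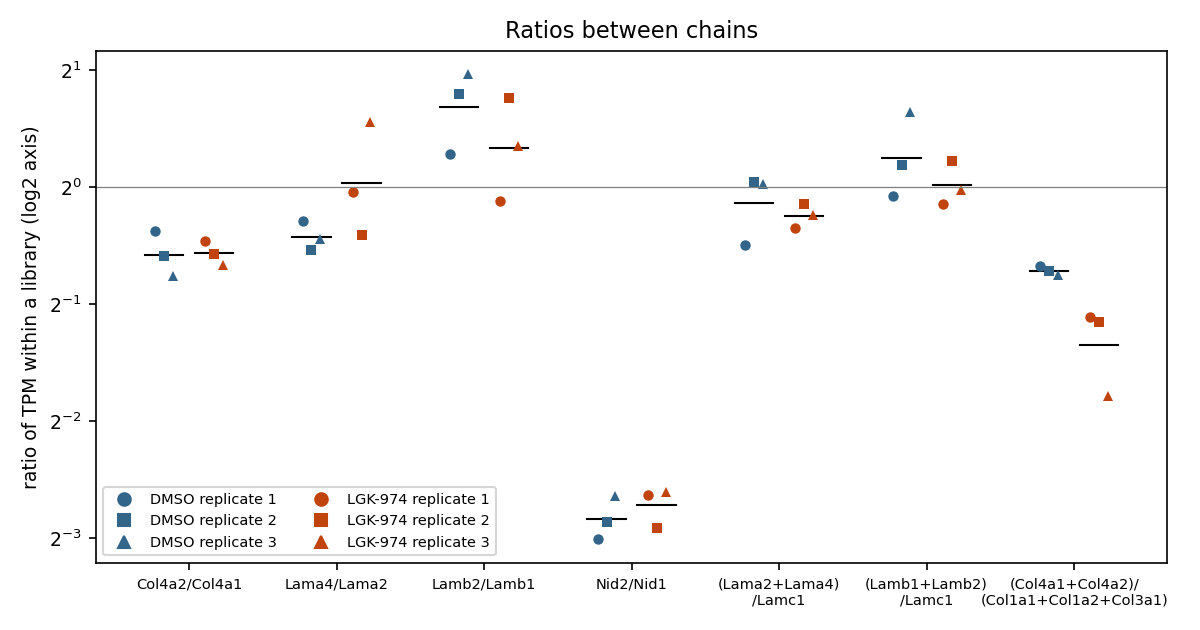
Ratios of summed TPM within each library for the 7 tested ratios, on a log2 axis, with DMSO in blue, LGK-974 in orange and black bars for the group means on the log scale. In the ratio of collagen IV to fibrillar collagens at the right, the LGK-974 libraries (0.290 to 0.464) lie below the DMSO libraries (0.595 to 0.627), and in the other 6 ratios the groups overlap.

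Kallisto divides the counts of a gene over its annotated transcripts. For Col4a1, Col4a2, Lamb2 and Lamc1 a single transcript held at least 92.0% of the counts in every library. Hspg2 counts were divided between transcripts of 14187 and 14176 bases, of which the former held 42.7 to 59.9%, and which are both annotated as coding. For Nid1 the transcript with the highest mean TPM had 646 bases, was annotated as a retained intron and made up 46.9 to 58.0% of Nid1 TPM. Nid2 differed from the rest, since its coding transcript of 4876 bases held 14.9 to 93.6% of the counts. In TPM this transcript made up 39.7, 61.0 and 45.5% of Nid2 under LGK-974 and 9.74, 24.3 and 42.5% under DMSO, and the remainder lay mostly on transcripts annotated as retained introns. The groups overlapped (exact permutation p = 0.2, adjusted p = 0.667 over 10 genes). For Lama2 the share of the 9614-base coding transcript was 33.3 ± 1.61% and 36.8 ± 0.863% of TPM (SD, n = 3 each, LGK-974 and DMSO), without overlap (exact permutation p = 0.1, adjusted p = 0.5), whereas on counts the groups overlapped and the difference was −1.73 percentage points. For Col4a1 the 6615-base transcript held 64.7 ± 0.580% and 58.8 ± 5.70% (SD, n = 3 each), also without overlap (exact permutation p = 0.1, adjusted p = 0.5), but on counts the means differed by 0.722 percentage points only.

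The remaining genes of the basement membrane, a list of 24, were all tested. The log2 fold change lay above 0 in 7 and below 0 in 17, with a median of −0.53, and 1 higher and 3 lower genes reached an unadjusted p-value under 0.05 (6.26% and 7.18% of all genes). Col15a1, a collagen at the outer side of vascular and muscle basement membranes, was measured at 238 ± 69.9 CPM under LGK-974 and 107 ± 21.3 under DMSO (SD, n = 3 each). Its log2 fold change of 1.16 was larger than those of the 10 genes (adjusted p = 0.368 by edgeR's test and 0.00497 by DESeq2). Lama3, the alpha chain of epithelial laminins, Hmcn1, the gene of hemicentin 1, and Col4a4, a collagen IV chain of the kidney filter, had log2 fold changes of −0.80, −0.63 and −0.66 (edgeR, adjusted p = 0.368 each). Lama3 and Col4a4 were at low levels, 5.12 ± 0.303 and 5.66 ± 1.37 CPM under LGK-974 and 8.90 ± 1.80 and 8.98 ± 1.33 under DMSO (SD, n = 3 each). Many genes of this list had few counts, and several, such as Lama1, Lamc3 and Fras1, had their highest value in DMSO replicate 1. Without that library the median of the list was −0.14. Lama5, the other main alpha chain of vessels, had 94.4 ± 23.7 and 138 ± 48.9 CPM (SD, n = 3 each, log2 fold change −0.55, edgeR adjusted p = 0.4).

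Receptors and assembly genes were read from lists of their own. Of 10 receptor genes for laminin and collagen IV, 0 reached an unadjusted p-value under 0.05, and the median log2 fold change was 0.10. Itgb1, the beta chain that most of these integrins share, had 547 ± 41.2 CPM under LGK-974 and 416 ± 82.4 under DMSO without overlap (SD, n = 3 each, edgeR adjusted p = 0.413). Dag1, the gene of dystroglycan, had 222 ± 26.9 and 248 ± 59.9 CPM (SD, n = 3 each, edgeR adjusted p = 0.741).

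Of 11 genes that modify, fold, export or crosslink collagen, 10 had a higher mean with LGK-974. An unadjusted p-value under 0.05 was reached by 6, all higher (6.26% of all genes), and in 7 the groups did not overlap (10.7% of all genes). Loxl2, which crosslinks collagen IV among other collagens, had 126 ± 56.2 CPM under LGK-974 and 51.5 ± 10.5 under DMSO (SD, n = 3 each), and the log2 fold change was 1.29. Serpinh1, the collagen chaperone of the endoplasmic reticulum, P4hb and P4ha1, which form prolyl 4-hydroxylase, and Plod2, a lysyl hydroxylase, had log2 fold changes of 0.91, 0.75, 0.79 and 0.46. The adjusted p from edgeR was 0.368 for each, and DESeq2 gave Loxl2 an adjusted p of 0.00752. Without LGK-974 replicate 3, 2 of the 11 reached an unadjusted p-value under 0.05, beside 636 higher and 185 lower genes among all 19712. These proteins serve fibrillar collagens as well as collagen IV.

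Among 10 genes of matrix degradation 9 were tested, and 3 had an unadjusted p-value under 0.05, all higher (6.26% of all genes). These were the cathepsins Ctsb and Ctsl and the membrane protease gene Mmp14, with log2 fold changes of 0.92, 0.58 and 0.74 (edgeR, adjusted p = 0.368 each). DESeq2 gave Ctsb an adjusted p of 0.0356. The gelatinases Mmp2 and Mmp9, which cleave collagen IV, had log2 fold changes of 0.02 and −0.05. Mmp7 did not pass the filter on low counts.

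**Figure D5:**
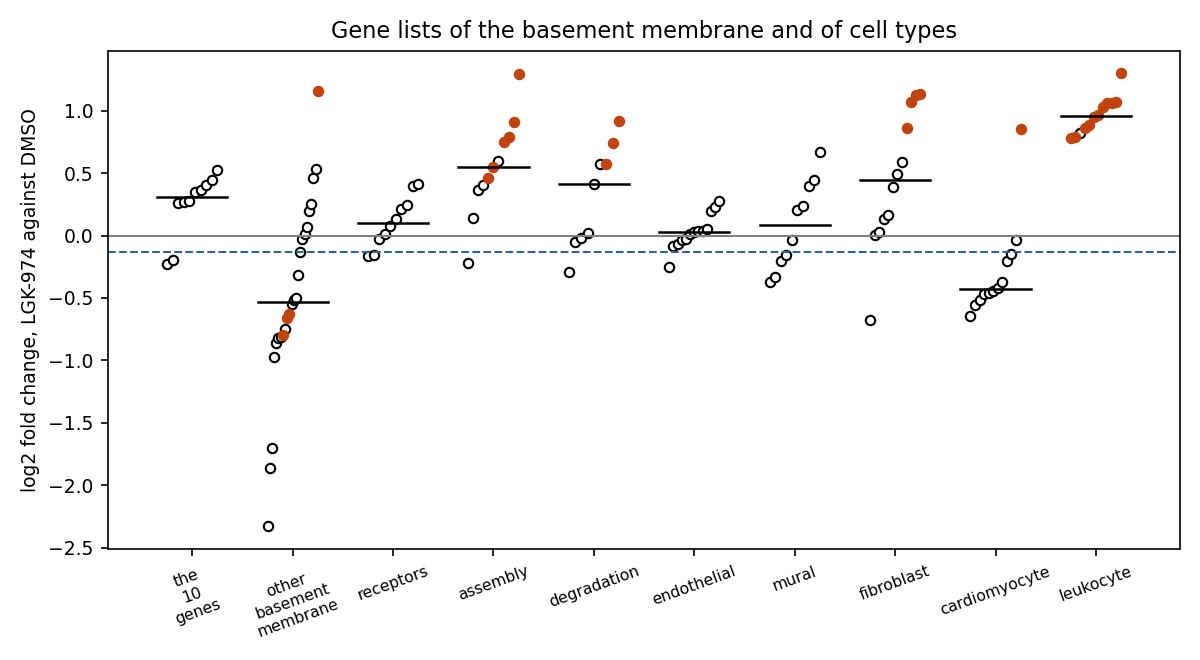
Log2 fold change between LGK-974 and DMSO mice, above 0 where LGK-974 was higher, for the tested genes of each list. Each circle is a gene, filled red where the unadjusted p-value of edgeR's test is under 0.05, black bars are list medians, and the dashed line is the median of all tested genes (−0.13). The 10 genes have 0 filled circles, the assembly list 6 of 11 and the leukocyte list 11 of 12. Of all tested genes 6.26% reached this level as higher and 7.18% as lower.

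Markers of cell types were read beside these values. The 13 endothelial markers, among them Pecam1, Cdh5 and Kdr, had a median log2 fold change of 0.03, and their summed level was 740 to 811 CPM in treated mice and 666 to 923 in controls. For 10 pericyte and smooth muscle markers the median was 0.09, with sums of 698 to 851 and 644 to 1014 CPM. In both lists 0 genes reached an unadjusted p-value under 0.05. Summed levels of the 10 basement membrane genes were 3114 to 3694 CPM in treated mice and 1930 to 3103 in controls. The lowest sum was that of DMSO replicate 1, as for both marker lists. Fibroblast markers had a median of 0.44 with 11 of 12 higher, and summed to 3627 to 5578 and 1871 to 2955 CPM. Most of these sums came from the 3 fibrillar collagen genes named above, which this list holds. The most abundant of its other genes, Dcn and Gsn, overlapped between the groups. Dcn had 332 ± 109 CPM under LGK-974 and 331 ± 105 under DMSO, and Gsn 191 ± 100 and 305 ± 160 (SD, n = 3 each). Among the 12 cardiomyocyte markers 11 were lower (median −0.43), and the list summed to 40173 to 57336 CPM under LGK-974 and 45871 to 63805 under DMSO. All 12 leukocyte markers were higher, with a median of 0.96, and summed to 487 to 630 and 213 to 306 CPM. The 7 mesothelial markers summed to 8.99 to 10.3 and 9.43 to 20.7 CPM, with a median of −0.55. In none of these lists did a gene pass 0.05 after adjustment in edgeR. With DESeq2, 7 leukocyte, 4 fibroblast and 1 cardiomyocyte marker did, against 1.23% of all genes. That cardiomyocyte marker was Actc1, the only one of its list that was higher (edgeR log2 fold change 0.86, DESeq2 adjusted p = 0.0448). The part of these lists in the values of the 10 genes was not tested.

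The genes closest to the mean pattern of the 10 over the 6 libraries were found by the root-mean-square distance of centred log2 CPM, over 10878 genes with a mean of at least 5 CPM. Col4a5, a further collagen IV chain that belongs to the list of 24 above, came first at 0.0205, beside a median distance of 0.281. It had 45.9 ± 1.87 CPM under LGK-974 and 38.6 ± 8.55 under DMSO (SD, n = 3 each), and the log2 fold change was 0.25 (edgeR, adjusted p = 0.519). The next were Csnk1d, Atp6ap1, Rpl29 and Kdm1a, at 0.0347 to 0.0384. The mean pattern itself lay at −0.56 in DMSO replicate 1 and between 0.04 and 0.17 in the other libraries. Of the 10 genes Nid1 and Lamb1 lay nearest to it, at 0.0540 and 0.0552, and Lama2 and Lamb2 farthest, at 0.321 and 0.307.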

How the data were processed

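Infarct tissue of 3 LGK-974 and 3 DMSO mice had been depleted of ribosomal RNA, made into libraries with a capture kit and sequenced. Kallisto had been run by the authors against the Ensembl transcriptome (GRCm38). For 118489 transcripts the deposited values were estimated counts and TPM, which are relative to transcript length and to the library total. The version and the use of strand were not given in the sources used here.

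Transcripts were joined to genes with GENCODE M21 (98.6% of transcripts, at least 99.6% of counts), and estimated counts were summed and rounded. A gene was tested if 3 or more libraries had 10 or more counts. Testing used edgeR 4.0.16 (R 4.3.3) with TMM factors, a model of treatment alone, and adjustment after Benjamini and Hochberg. Standard errors are the log2 fold change over the square root of F. DESeq2 1.42.0 and limma 3.58.1 (voom) served as alternatives. On simulated data of 20094 genes with 200 changed by a log2 fold change of 2, edgeR recovered 80.5% with 17 false among 178 calls, and DESeq2 91% with 77 false among 259. Only genes above a minimum expected count were changed, and the spread of each gene was the one estimated by edgeR. These rates do not hold for changes as small as those of the 10 genes. Nor do they compare the programs on equal terms. Ratios and transcript shares were tested with exact permutation tests (SciPy 1.17.1). Alternatives were other normalization factors, no filter, exclusion of mitochondrial genes, counts scaled from TPM, the most abundant transcripts, a replicate block and leaving out each mouse. Levels on counts per kb were added after seeing the data.

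Members and gene lists were chosen with earlier results of these data known. Named were the 10 members, up to 5 genes per other list with the smallest p-values among those under 0.05 unadjusted, the genes of the ratios and the 5 genes nearest to the members' mean pattern. Itgb1, Dag1, Lama5, Mmp2, Mmp9 and some marker genes were named after their values were seen. The replicate numbers occur in both groups but belong to different mice.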

Additional observations from a re-analysis of the deposited data

How the results depend on the processing

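The 8 genes with a higher mean under LGK-974 kept this direction in all 15 alternatives of normalization, test, filter, counting unit, block and left-out library. Library totals without TMM factors moved the median of all genes from −0.13 to 0.08, and the median of the 10 genes lay 0.44 above it under both. Lama2 turned to 0.0039 on counts scaled from TPM, and ranged from −0.36 to 0.046 with a mouse left out. Lamb2 ranged from −0.45 to 0.18. The cause was not tested.

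Genes past an adjusted p-value of 0.05 numbered 0 with edgeR, 289 with DESeq2, 1206 without a filter on low counts and 0 to 2 with a mouse left out. Members at an unadjusted p-value under 0.05 numbered 0, 3 with DESeq2 and 0 to 2 with a mouse left out. Of the other basement membrane, receptor, assembly and degradation genes, 13 reached it, beside 13.4% of all tested genes. Without TMM factors 8 did, beside 944 higher and 1429 lower genes among all 20094. With a mouse left out the number ran from 7 without LGK-974 replicate 3 to 17 without DMSO replicate 3. Over all genes, 636 higher and 185 lower of 19712 reached it in the former fit, and 1823 and 2805 of 19948 in the latter.

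The log2 difference of the Col4a2 to Col4a1 ratio was −0.10 on estimated counts and −0.10 on the most abundant transcripts, and ran from −0.081 to 0.11 with a mouse left out. In the same way Nid2 to Nid1 ran from 0.037 to 0.22, both alpha chains to Lamc1 from −0.28 to −0.014, and both beta chains to Lamc1 from −0.40 to −0.040. On the most abundant transcripts the Lamb2 to Lamb1 ratio did not overlap between the groups. The difference in transcript share was 0.203 percentage points on counts for Lamb2. With a mouse left out it ran from −4.00 to 0.251 for Lamb2, −5.51 to 5.09 for Col4a2, −3.48 to 10.8 for Lamb1, −5.11 to 3.19 for Lamc1, −4.15 to 1.42 for Nid1 and −5.44 to 2.87 for Hspg2.

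The deviations of mice from their group mean correlated at −0.0482 to 0.475 between mice with the same replicate number (mean 0.273). Between mice of different groups and different numbers the mean was −0.136. The level of the receptor genes not used by the heart also fell from replicate 1 to replicate 3 in both groups. It was 30.9, 10.2 and 1.77 counts per kb under DMSO and 9.56, 2.82 and 0.805 under LGK-974. With the replicate block the median of the 10 genes was 0.34 and 0 of them had an unadjusted p-value under 0.05. In that fit 17 genes of the other basement membrane, receptor, assembly and degradation lists did, beside 1209 higher and 2103 lower genes among all 20094. With 3 mice per group, differences of the size seen here in the 10 genes could not be told from the spread between mice.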
